A study of Mus musculus with 15 samples.

Results

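The 42 genes described here drive or mark the cell cycle, and they were taken from a list of names, with no threshold on measured values. They cover D-type cyclins and their kinases, the E2F and RB factors of S phase entry, CDK inhibitors, replication enzymes, mitotic kinases and spindle proteins. They are 42 of 21631 protein-coding mouse genes. Open chromatin was measured by ATAC-seq, whose transposase inserts adapters where DNA is accessible. The data are the peak lists that the authors deposited for 15 libraries of FACS-sorted microglia, the macrophages that live in brain tissue. The 30000 top peaks of each library, ranked by the −log10 p that the authors' peak caller gave, defined 65384 regions over all libraries, and each region went to the nearest gene body within 100 kb. Of these regions, 169 fell to 40 of the 42 genes. A nearest gene is an assignment by position and does not show that a region acts on that gene.

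All libraries came from C57BL/6 mice, and their descriptions carry an F. The juvenile groups were untreated: WT (2 libraries) and IRF8KO (3) at P9, then WT (2) and IRF8KO (2) at P14, where P9 and P14 are postnatal days 9 and 14. IRF8KO mice lack IRF8, a transcription factor of the myeloid lineage, and the labels name no allele. The 3 groups at 10 months all received MetoxyX04, a dye that binds amyloid: WT, labelled as the control for the dye-positive cells, 5xFAD cells negative for the dye and 5xFAD cells positive for it (2 libraries each). The 5xFAD line carries mutant human amyloid precursor and presenilin transgenes under a neuronal promoter, so its microglia respond to plaques made by other cells. The labels do not state whether replicate libraries are from different animals, and p-values here reflect only library-to-library spread, possibly a technical one.

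Cyclins switch on cyclin-dependent kinases in a fixed order. D-type cyclins with CDK4 or CDK6 inactivate RB, which frees E2F factors to turn on genes for DNA replication, and B-type cyclins with CDK1 then start mitosis. Many mitotic genes carry a CHR element and CCAAT boxes in their promoters, which are read by the MuvB complexes and by NF-Y. Microglia multiply in the young brain and divide rarely in the healthy adult, and they can divide again near plaques.

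The lists differed in strength. The −log10 p at rank 30000 ran from 39.1 to 80.6 in juvenile libraries except IRF8KO at P14 (26.6 and 22.8), from 18.6 to 24.3 in WT and dye-negative cells at 10 months, and was 6.29 and 6.04 in dye-positive cells. In these last libraries 3865 and 4399 peaks shared the p of rank 30000, against 1 to 133 elsewhere. Marker genes of microglia held 30 to 34 strong regions (regions with a top-30000 peak within 200 bp) in WT and dye-negative libraries, 21 to 26 in IRF8KO, and 21 and 16 in dye-positive cells. Those of border-associated macrophages held 7 to 10 in WT and dye-negative libraries, 17 to 20 in IRF8KO, and 6 and 5 in dye-positive cells. Oligodendrocyte markers held 10 or 11 in juvenile WT and 5 or 6 in IRF8KO, and endothelial markers 9 or 10 and 5 or 6. Astrocyte markers held 2 to 4 in juvenile and 10 month WT and IRF8KO, but 8 in both dye-negative libraries and 5 and 7 in dye-positive cells. Neuronal markers held 0 to 4 strong regions, but 10 and 13 in dye-positive cells, and 5 of 6 neutrophil markers held none in any library. The remaining neutrophil marker, S100a9, held 0 in juvenile WT, 1 in each IRF8KO library at P9, 0 and 1 in IRF8KO at P14, and 0 to 2 at 10 months. Monocyte markers held 4 to 6 in juvenile libraries of both genotypes, 6 or 7 in WT and dye-negative cells at 10 months, and 3 and 5 in dye-positive cells. The Irf8 locus kept 9 to 12 strong regions in all juvenile libraries of both genotypes, which does not check the knockout, since accessible DNA outside a deleted part stays countable.

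Promoter sequences were available from RefSeq (GRCm38.p6, the assembly that mm10 names) for 35 of the 42 genes. The 8 shown here are the 250 bases before the start site used, 5′ to 3′ on the gene's strand. They were chosen as markers of dividing cells or as promoters that ranked better in every juvenile WT library than at 10 months. A promoter rich in E2F words was added, and Cdkn1a as one without any of the words searched. Of the promoters that ranked better at 10 months, only that of Cdk1 is shown. Capitals mark 3 kinds of words, searched on both strands, so that a capital run may hold the reverse complement or overlapping words: E2F (TTTCCCGC, TTTCGCGC, TTTGCCGC or TTTGGCGC), CHR (TTTGAA or TTCGAA) and CCAAT. Mki67, the proliferation antigen, lies at chr7:135716380-135716629 on the minus strand. Top2a, the topoisomerase that untangles replicated chromosomes, lies at chr11:99024190-99024439 on the minus strand. Cdk1, the mitotic kinase, lies at chr10:69352913-69353162 on the minus strand. Cdc20, an activator of the anaphase-promoting complex, lies at chr4:118437344-118437593 on the minus strand. Ccnb1, which encodes cyclin B1, lies at chr13:100786487-100786736 on the minus strand. Cdc6, which loads the MCM helicase onto DNA, lies at chr11:98907901-98908150 on the plus strand. The summit of its promoter peak lay at a median of -435 bp from the start used, outside these bases. The Cdc6 gene body begins at 98907709, so the bases shown lie inside the gene and the summit near its outer end. Mcm6, a subunit of that helicase, lies at chr1:128359706-128359955 on the minus strand. Cdkn1a, which encodes the CDK inhibitor p21, lies at chr17:29093519-29093768 on the plus strand. These bases also lie inside the gene body, which begins at 29090979.
Mki67: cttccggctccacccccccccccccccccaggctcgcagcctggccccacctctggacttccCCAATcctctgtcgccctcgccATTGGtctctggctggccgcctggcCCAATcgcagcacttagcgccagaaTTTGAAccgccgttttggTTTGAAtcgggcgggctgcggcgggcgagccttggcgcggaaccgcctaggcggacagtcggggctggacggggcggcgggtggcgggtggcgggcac
Top2a: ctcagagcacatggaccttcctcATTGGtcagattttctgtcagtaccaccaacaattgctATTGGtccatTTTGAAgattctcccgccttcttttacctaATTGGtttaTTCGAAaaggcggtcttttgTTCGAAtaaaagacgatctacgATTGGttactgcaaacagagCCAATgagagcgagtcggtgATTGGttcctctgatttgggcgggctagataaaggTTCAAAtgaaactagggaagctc
Cdk1: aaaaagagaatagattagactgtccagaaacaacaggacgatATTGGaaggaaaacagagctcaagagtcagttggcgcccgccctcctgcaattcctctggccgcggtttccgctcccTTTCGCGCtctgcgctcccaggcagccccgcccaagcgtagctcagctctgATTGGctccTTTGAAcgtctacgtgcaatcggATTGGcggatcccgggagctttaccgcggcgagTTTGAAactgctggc
Cdc20: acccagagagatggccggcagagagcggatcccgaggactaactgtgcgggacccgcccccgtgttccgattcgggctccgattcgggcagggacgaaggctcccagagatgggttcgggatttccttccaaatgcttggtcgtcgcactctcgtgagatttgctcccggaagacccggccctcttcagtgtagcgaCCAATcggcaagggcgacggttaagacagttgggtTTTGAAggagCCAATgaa
Ccnb1: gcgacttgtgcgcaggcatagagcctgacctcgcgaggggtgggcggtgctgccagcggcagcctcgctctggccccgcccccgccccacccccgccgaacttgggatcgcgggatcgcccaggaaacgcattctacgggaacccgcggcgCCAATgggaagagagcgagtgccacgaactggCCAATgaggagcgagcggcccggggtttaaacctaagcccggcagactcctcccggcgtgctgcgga
Cdc6: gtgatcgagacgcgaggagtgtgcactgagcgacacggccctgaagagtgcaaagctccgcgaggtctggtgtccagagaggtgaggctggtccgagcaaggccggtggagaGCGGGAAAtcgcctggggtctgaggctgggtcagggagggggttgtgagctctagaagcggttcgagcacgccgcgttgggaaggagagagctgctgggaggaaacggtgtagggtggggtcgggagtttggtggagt
Mcm6: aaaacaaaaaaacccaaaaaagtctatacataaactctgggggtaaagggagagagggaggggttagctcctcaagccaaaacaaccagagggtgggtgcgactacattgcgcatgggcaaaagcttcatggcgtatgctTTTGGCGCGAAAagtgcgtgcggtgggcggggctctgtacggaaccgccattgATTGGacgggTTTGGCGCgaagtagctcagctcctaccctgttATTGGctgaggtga
Cdkn1a: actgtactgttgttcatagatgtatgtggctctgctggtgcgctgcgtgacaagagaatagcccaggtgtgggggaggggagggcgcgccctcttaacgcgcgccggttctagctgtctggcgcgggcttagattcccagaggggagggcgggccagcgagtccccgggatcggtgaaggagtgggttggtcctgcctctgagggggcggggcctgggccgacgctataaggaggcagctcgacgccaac

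The words were more frequent in these promoters than in promoters at large. CCAAT stood in 26 of 35 (74.3%) against 36.7% of 17274 promoters of the same length, a CHR word in 10 (28.6%) against 15.6%, and an E2F word in 7 (20%) against 2.53%. All 10 promoters with a CHR word also held CCAAT, a pair found in 6.04% of all promoters. Top2a held 4 CHR words and 6 CCAAT words, the nearest CHR word starting 23 bases before the start site, and Mki67 held 2 and 3. Mcm6 held 3 E2F words and no CHR word, and Cdk1 held all 3 kinds. A match is a description of the letters and does not show binding.

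Most of these promoters had strong peaks in every library. A peak lay within 500 bp of the start in at least 1 library for 35 of 35 genes, and 27 of them (77.1%) had a top-30000 peak there in all 15 libraries, against 32.6% of all 17274 genes. Cenpf, a kinetochore protein, had the best ranks, from 41 to 422 among all peaks of a library, together with E2f3 (42 to 546). Mki67 ranked between 4927 and 14749, Top2a between 3087 and 13211, and Cdk1 between 1657 and 9851. Cdk2 and Mcm4 had no region because the nearest-gene rule gave the regions at or near their gene ends to Pmel and Prkdc. Those regions were strong in all 15 libraries. At the weak end, E2f1 had no peak within 500 bp of the start used in dye-negative or dye-positive cells. It also had none in the first WT library at 10 months, and ranked 56950 in the second. E2f2 had no peak at its start in dye-positive cells. The starts that the table gives for E2f1, E2f2, Cdk6 and Tyms had no top-30000 peak in any library, and that of Cdkn1a had 1, in WT at 10 months (ranks 28208 to 55549 in the 14 libraries with a peak). E2f1 nonetheless had a strong region in all 15 libraries by the nearest-gene rule. The starts used for E2f1, Cdk6 and Cdkn1a lie inside their gene bodies, so these ranks may not describe the outer 5′ ends. For E2f1, on the minus strand, the start used is chr2:154569426 and the body ends at 154569892.

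**Figure D1:**
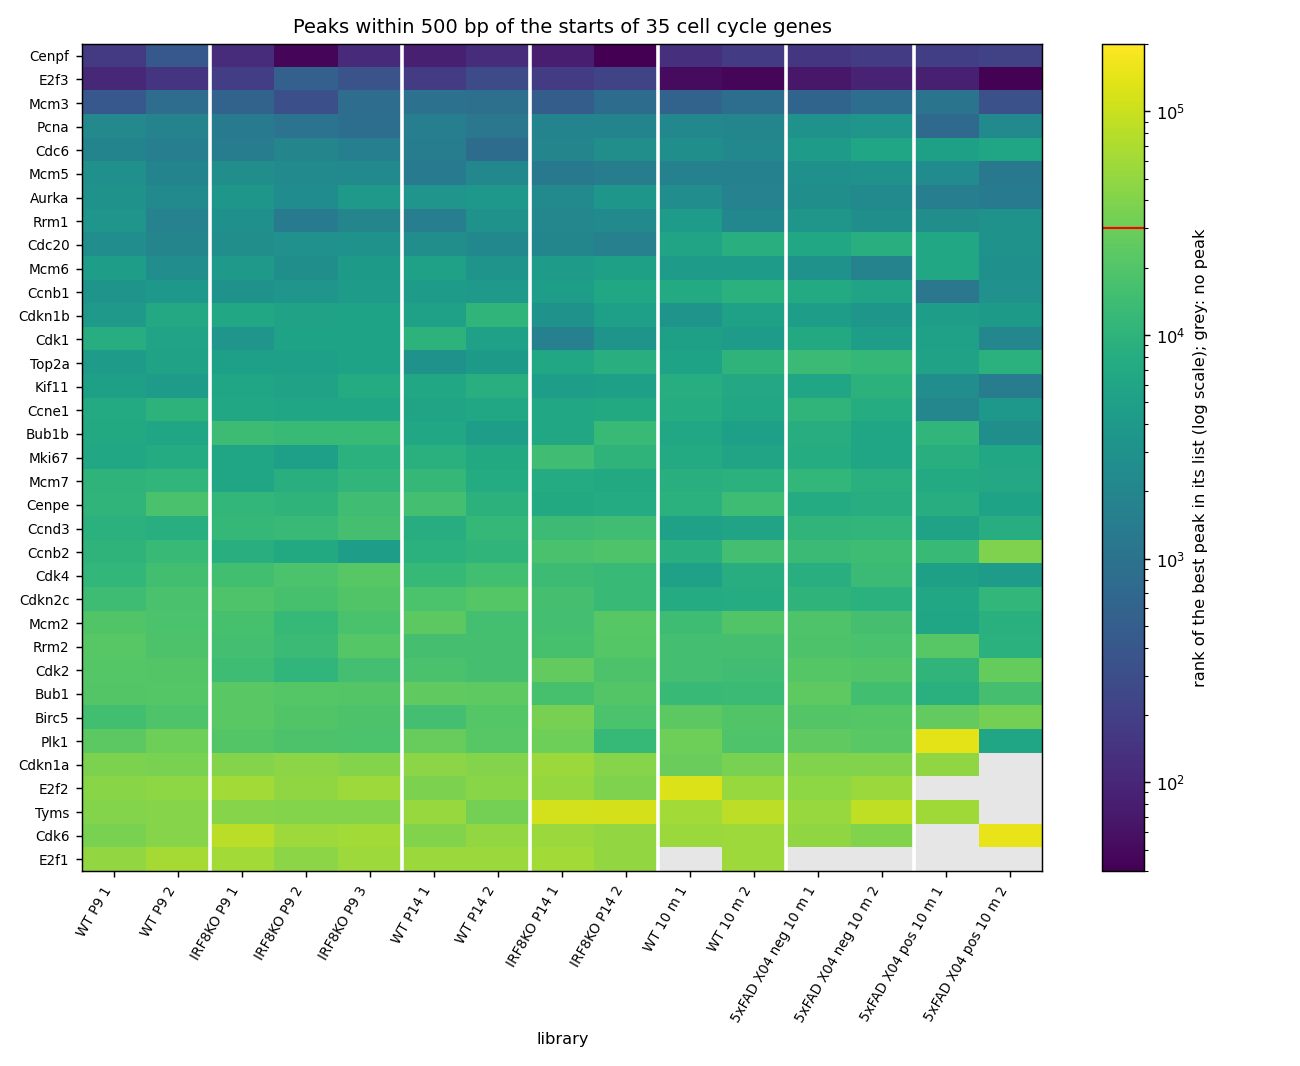
Rank of the best peak within 500 bp of the start site (colour, log scale, rank 1 is the strongest peak of a library, red mark at rank 30000) for 35 cell cycle genes (rows, ordered by median rank) in the 15 libraries (columns). Of the 35 genes, 27 stayed inside the top 30000 in all 15 libraries, and E2f1, E2f2, Cdk6 and Tyms in none.

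Between ages, promoter ranks of these genes shifted by about as much as those of other genes. The median change from 10 month to juvenile WT was 0.05 in log10 rank over the 31 members with a top-30000 promoter peak in any library, and 0.05 over 9324 genes. Ranks were better in every juvenile WT library than in both 10 month WT libraries for 4 of the 31 (Ccnb1, Cdc20, Cdc6 and Top2a), against 12.2% of all genes. The reverse held for 7 (Bub1, Ccnd3, Cdk1, Cdk2, Cdk4, Cdkn2c and E2f3), against 28.4%. These shares, 12.9% and 22.6%, lie near those of all genes.

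Cdc20 showed the largest separation of the former 4. Its promoter ranked 2609, 1923, 2668 and 2121 in juvenile WT and 5834 and 8415 in WT at 10 months, with 1640 to 3139 in IRF8KO, 6606 and 8395 in dye-negative and 6413 and 3191 in dye-positive cells. Ccnb1 ranked 3332 to 4366 in juvenile WT and 7291 and 9302 at 10 months, but 1187 and 2989 in dye-positive cells. Top2a ranked 3087 to 5437 in juvenile WT and 5547 and 10244 at 10 months, so its groups came close. On the other side, E2f3 ranked 103 to 291 in juvenile WT and 52 and 46 at 10 months. With 4 libraries against 2, an exact permutation test cannot go below p = 0.0667, so no test is given. Age, the dye and the lower strength of the 10 month lists cannot be told apart.

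Over start sites, promoter ranks did not pass the genotype test. No promoter of the 31, and none of 9324 genes (0%), passed the exact permutation test of rank within age (lowest Benjamini-Hochberg adjusted p = 0.148). At an unadjusted exact p under 0.05, 1 member ranked better in IRF8KO (Cenpf) and 2 ranked better in WT (Bub1b and Ccnd3), against 764 (8.19%) and 746 (8.0%) of all genes. Cenpf and Bub1b, at the same exact p = 0.0167, did pass in the test over all 42905 regions (Benjamini-Hochberg adjusted p = 0.0421), where more features reached the smallest p, so their call depends on which features are tested together. The Ccnd3 start has that exact p too and lies inside its gene body, over 1 kb from either end. Regions at Ccnd3 passed the test over all regions in both directions. Bub1b, a spindle checkpoint kinase, ranked 4736 to 6948 in juvenile WT and 6448 to 13576 in IRF8KO. The median change from WT to IRF8KO was −0.03 in log10 rank for members and −0.01 for all genes.

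Summed over the 40 genes, strong regions differed little between genotypes. There were 94 and 98 in WT and 97, 94 and 95 in IRF8KO at P9, and 95 and 99 in WT and 98 and 99 in IRF8KO at P14. WT at 10 months had 92 and 89, dye-negative cells 91 and 93, and dye-positive cells 84 and 71. Juvenile WT averaged 96.5 ± 2.38 (SD, n = 4) and 10 month WT 90.5 ± 2.12 (SD, n = 2), and these groups did not overlap. Strong regions over all genes did not overlap either, at 26702 to 26907 in juvenile WT and 26144 and 26315 in WT at 10 months. The genotype difference averaged over ages was 0.42 regions, less than the spread between libraries, and the genotypes overlapped.

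The roles did not differ alike. The genes of S phase entry (Ccne1, Ccne2, E2f1, E2f2, E2f3 and Rb1, with Cdk2 at 0) held 22, 21, 21 and 21 strong regions in juvenile WT, against 17, 17, 17, 18 and 18 in IRF8KO, with no overlap. The genes of the mitotic spindle, checkpoint and chromosomes held 12, 16, 16 and 17 in juvenile WT and 17, 18, 18, 19 and 20 in IRF8KO, and the groups did not overlap within either age. How often sums over other sets of genes separate in this way was not tested. Within S phase entry, E2f3 held 9, 9, 9 and 8 in juvenile WT and 7, 7, 7, 8 and 6 in IRF8KO, which overlap at P14, and E2f2 held 2, 2, 3 and 3 against 1 in each. Rb1 held 5 and 4 in WT against 3 in each IRF8KO library at P9, and 3 and 4 in both genotypes at P14. Cenpe, a mitotic gene, went against its role, with 1, 4, 3 and 4 in juvenile WT and 1, 1, 1, 1 and 2 in IRF8KO, which overlap at P9. Ccne1 and E2f1 had the same count in all 9 juvenile libraries, as did Top2a, Bub1 and Cdc20 among the mitotic genes, where Mki67 and Kif11 were the genes higher at both ages. The longer list of 49 other G2/M genes held 77 in each juvenile WT library and 76, 74, 76, 77 and 75 in IRF8KO, so it was not higher in IRF8KO. Replication genes held 14 to 16 in juvenile WT and 11 and 13 in WT at 10 months, with 16 and 16 in dye-negative cells. CDK inhibitors held 7 or 8 in every juvenile library.

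**Figure D2:**
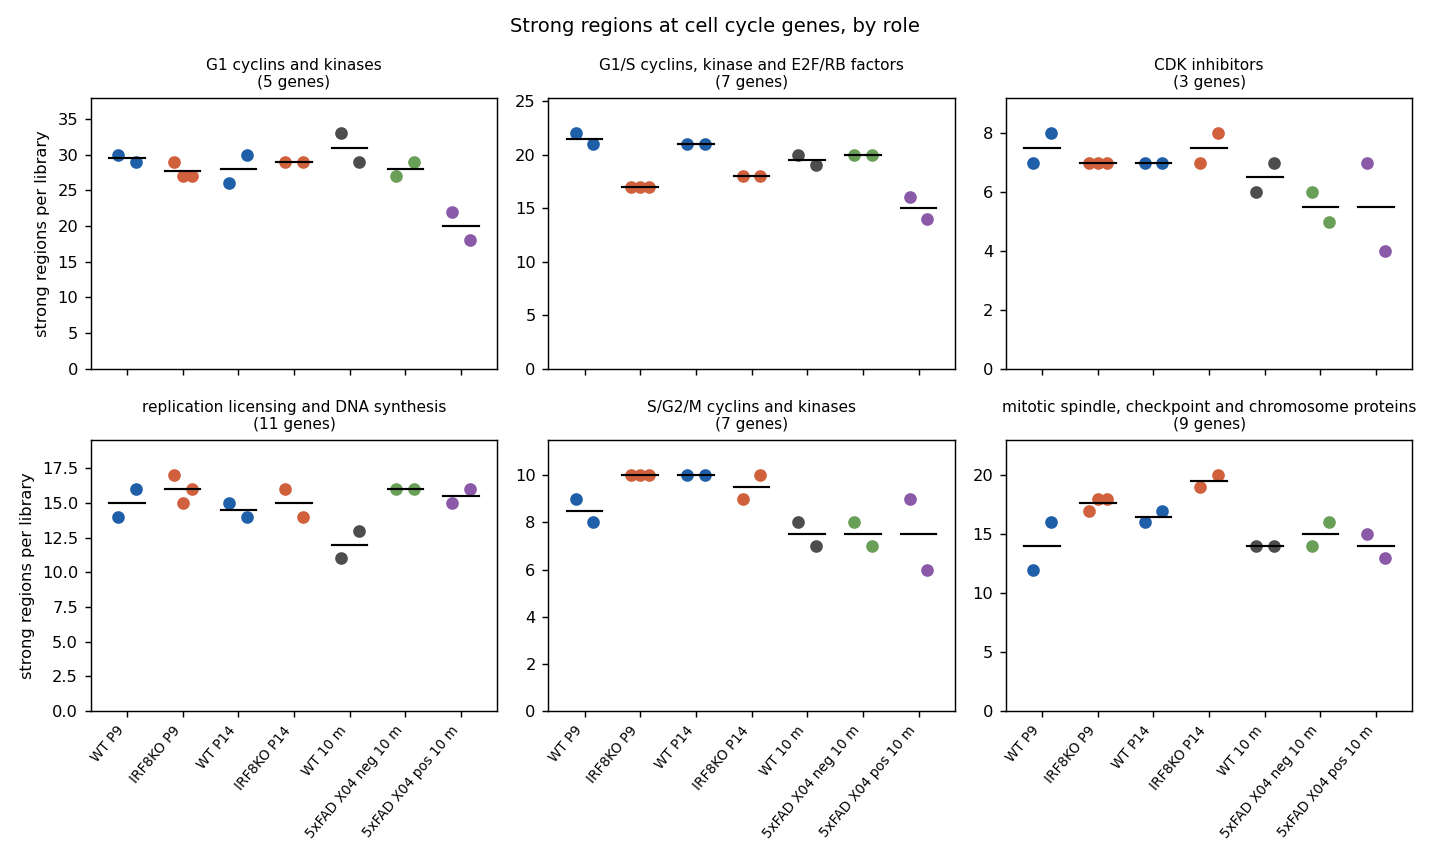
Strong regions per library (points, number of regions) and group mean (line) for the 6 roles among the 42 genes, in the 7 groups. The summed counts for S phase entry sit lower in IRF8KO than in juvenile WT and those for mitotic genes higher within each age, each through a few genes, and the dye-positive libraries are lowest for the G1 genes (22 and 18 against 26 to 33 elsewhere).

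Gene by gene, Ccnd2, Mki67 and Kif11 held more strong regions in IRF8KO than in WT at both ages without overlap, and Ccnd1 and E2f2 held fewer. That is 3 of 40 genes (7.5%) against 7.51% of all genes in the former direction and 2 (5.0%) against 6.99% in the latter, so the number of such genes is near the background. Within an age, 4 genes were above (13.1% of all genes) and 5 below (11.7%) at P9, and 3 above (13.4%) and 4 below (13.7%) at P14. Ccnd2, which encodes cyclin D2, held 2 in each of the 4 juvenile WT libraries, against 5 in each IRF8KO library at P9, then 7 and 6 at P14. Mki67 held 3 and 4 in WT at P9 and 4 and 4 at P14, against 7, 7, 6, 7 and 6 in IRF8KO. Kif11, a spindle motor, held 1 and 1 in WT at P9 and 2 and 1 at P14, against 2, 2, 3, 3 and 4. Ccnd1, which encodes cyclin D1, held 9 and 10 in WT at P9 and 8 and 10 at P14, against 8, 7, 7, 6 and 6. Ccnd1 and Ccnd2, whose cyclins serve the same step, thus differed in opposite directions. The remaining D-type cyclin gene, Ccnd3, held 7 and 5 in WT and 7, 6 and 6 in IRF8KO at P9, which overlap. At P14 it held 7 and 7 in WT and 5 and 6 in IRF8KO.

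Region by region, presence as a strong region passed the exact permutation test within age for 13 of the 17 regions at these genes that could pass. Of these, 7 were gained in IRF8KO (39.4% of 6330 testable regions over the genome) and 6 were lost (39.1%). Each of the 13 was strong in all libraries of its genotype and in no library of the other, so each has the smallest p that 60 arrangements allow (exact p = 0.0167, Benjamini-Hochberg adjusted p = 0.0212). The share called, 13 of 17, lies near the 78.5% of all testable regions. All 13 also passed the exact test of rank (adjusted p = 0.0421). In that test 20 of 137 regions at these genes ranked better in IRF8KO (20.1% of all 42905 regions did) and 26 ranked worse (19.5%).

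All 13 regions lay over 1 kb from an end of their gene, as did all 17 that could pass, so the position was fixed by which regions vary. Over the genome, 92.9% of the called and 90.3% of the testable regions with a gene lay that far. Past the rank test it was 44 of 46 regions (95.7%, all but the promoter regions of Cenpf and Bub1b), against 88.9% of called regions over the genome and 73.0% of those tested at these genes. Regions near a gene end were the steady ones. Of 40 regions within 1 kb, 26 (65.0%) were strong in all 15 libraries, against 16 of the other 129 (12.4%), and the shares over all regions with a gene were 44.5% and 8.08%.

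Among the regions gained in IRF8KO, the region 42.5 kb from Mki67 (chr7:135758776-135759176, mm10) reached the best ranks. In the IRF8KO libraries its ranks were 5371, 6424 and 6042 (P9) and 7006 and 6848 (P14). In WT it ranked 39458 and 40316 at P9, 52911 and 31342 at P14, and 42745 and 62987 at 10 months. Its IRF8KO ranks lie in the range of the Mki67 promoter in the same libraries (4927 to 14749), and those of WT lie outside the top 30000. A second region, 57.6 kb from Mki67 (chr7:135773839-135774239), ranked 15785 to 29306 in IRF8KO and 45928 to 60984 in juvenile WT.

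Cdk6, a kinase partner of D-type cyclins, had 2 regions gained and 2 lost. The region inside the gene at chr5:3387172-3387572 ranked 6405, 5887, 7613, 8338 and 6089 in IRF8KO and 37823, 31105, 31614 and 35315 in juvenile WT. The region 39.7 kb outside (chr5:3301125-3301525) ranked 9655 to 19357 in IRF8KO and 38538 to 57407 in juvenile WT. The reverse held inside the gene at chr5:3420118-3420518, where juvenile WT ranked 15470, 17293, 10399 and 15366 and IRF8KO 53083, 51466, 74579, 138576 and 66944. It also held 67.6 kb outside (chr5:3273173-3273573), with ranks of 14987 to 17815 in WT and 34140 to 71326 in IRF8KO. In number, Cdk6 held 11 and 11 strong regions in WT and 8, 8 and 8 in IRF8KO at P9, and 9 and 10 against 10 and 10 at P14.

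At Ccnd2, the region inside the gene at chr6:127143127-127143527 ranked 16941 to 27036 in IRF8KO and 40079 to 50056 in juvenile WT. The region 13.7 kb outside (chr6:127165670-127166070) ranked 13945 to 24253 and 61833 to 94968. At Mcm3, a helicase subunit, the region 9.22 kb outside (chr1:20829332-20829732) ranked 16571, 18269, 14270, 11123 and 8164 in IRF8KO and 38298, 68841, 54212 and 46824 in juvenile WT. Juvenile WT libraries all had a peak at these 3 regions, at weaker ranks. Ccnd1 showed the opposite, 40.2 kb outside the gene (chr7:144979809-144980209), with 17684 to 21709 in juvenile WT and 40256 to 84181 in IRF8KO.

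E2f2 and E2f3, activators of S phase genes, held the losses with no peak left. The region inside E2f2 (chr4:136180406-136180806) ranked 16131 and 8731 in WT at P9 and 12627 and 13455 at P14, and no IRF8KO library had a peak there. At 10 months it ranked 65750 in 1 WT library and had no peak in the other, so it was also weak in older WT. The region 22.9 kb outside E2f3 (chr13:30008736-30009136) had ranks of 16808 to 29128 in juvenile WT, no peak in any IRF8KO library, and 15632 and 16328 in WT at 10 months. The region 28.3 kb outside E2f3 (chr13:30014143-30014543) ranked 22814 to 29822 in WT and 33030 to 72738 in IRF8KO, close to the limit of 30000 on both sides.

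**Figure D3:**
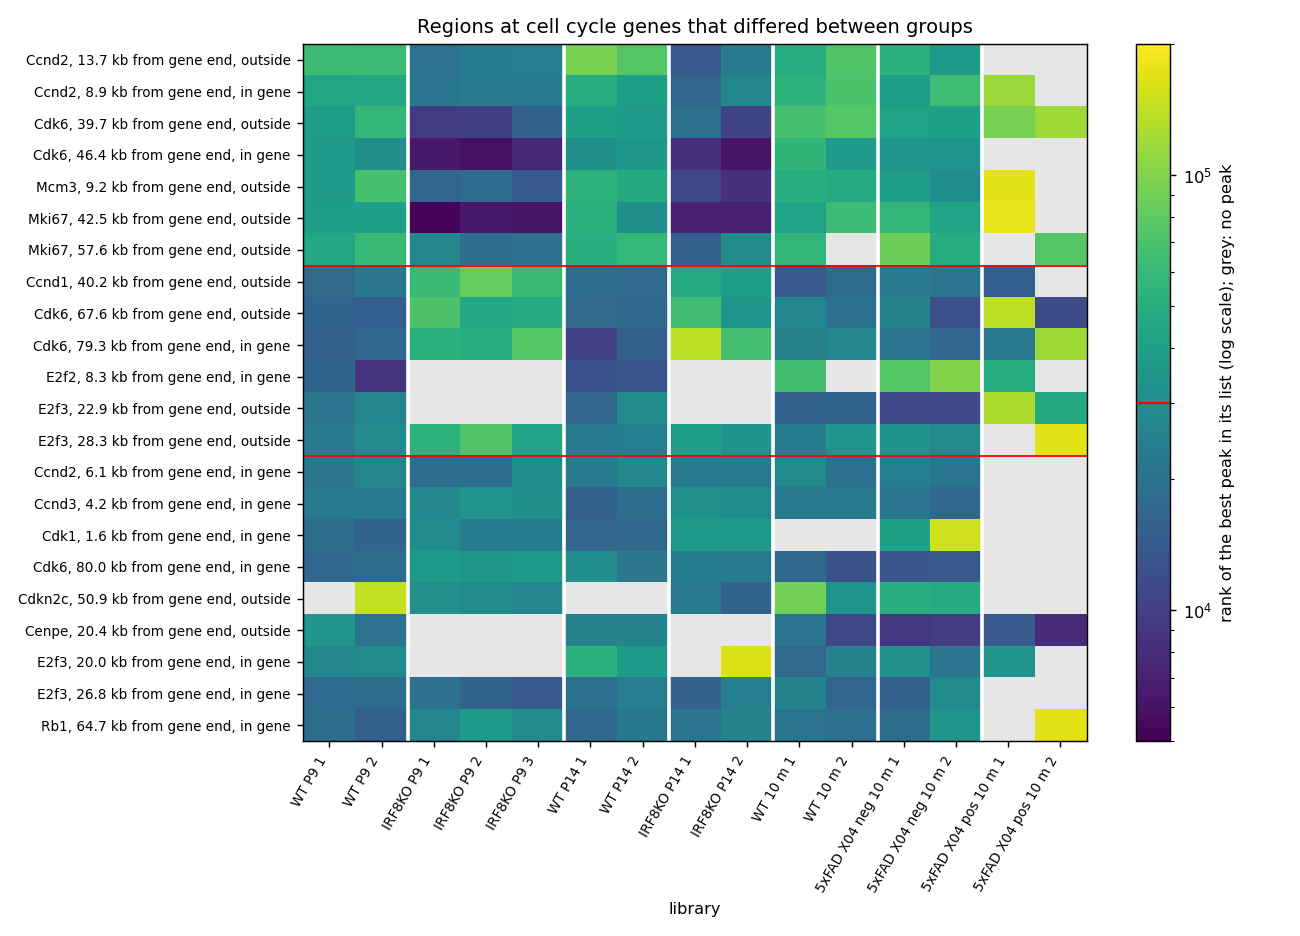
Rank of the best peak (colour, log scale, red mark at rank 30000, grey for no peak) within 200 bp of the 22 regions at cell cycle genes that differed in presence (rows) in the 15 libraries (columns). Above the upper red line are the 7 regions gained in IRF8KO, between the lines the 6 lost, and below them the regions called only by strong against absent.

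A stricter rule asked for regions strong in every library of a group and absent from every library of the other, with no summit within 400 bp among its first 126060 peaks. It is a description with no test. At P9 it called 0 of 102 regions at these genes higher in IRF8KO (1.69% of all eligible regions) and 3 lower (1.82%), 1 in E2f2 and 2 at E2f3. At P14 it called 1 of 106 higher (1.92%), at Cdkn2c, and 3 lower (2.27%), at E2f2, E2f3 and Cenpe. The Cdkn2c region, 50.9 kb outside this CDK inhibitor gene (chr4:109609785-109610185), ranked 22661 and 16285 in IRF8KO at P14 with no peak in WT there, and 26965 to 32032 in IRF8KO at P9. The region 20.4 kb outside Cenpe, a kinetochore motor (chr3:135191922-135192322), had no peak in any IRF8KO library and ranked 25527 and 26020 in WT at P14, with 7925 to 20634 in all groups at 10 months. The remaining E2f3 region, inside the gene (chr13:29926404-29926804), ranked 27537 and 29151 in WT at P9. Border-macrophage, microglia, oligodendrocyte and endothelial markers differ between these genotypes as given above, and fewer cells of a type cannot be told apart from less open chromatin per cell. Their part in the genotype results was not tested.

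Lists of other cell cycle genes, also chosen by name, had calls in both directions. By the exact test of presence, 1 region was gained and 1 lost of 4 testable at S phase genes, 1 and 4 of 7 at G2/M genes, and 3 and 5 of 9 at G1 and arrest regulators. Over the genome, 39.4% of the 6330 testable regions were gained and 39.1% lost, so calls in both directions are common among testable regions. Myc, which drives growth and proliferation, lost 3 regions, and that 9.44 kb outside the gene (chr15:61999596-61999996) ranked 4045 to 5159 in juvenile WT with no peak in any IRF8KO library. A region inside Kif20b, a mitotic kinesin (chr19:34959383-34959783), did the reverse, with ranks of 13544 to 19002 in IRF8KO and no peak in WT of any age. Regions at Tpx2 and Ect2, which serve the spindle and cytokinesis, were strong in juvenile WT (14331 to 21806 and 15890 to 21329) and had no peak in IRF8KO.

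Between juvenile and 10 month WT, the strict rule called 1 of 95 regions at these genes higher in juvenile WT (0.222% of all eligible regions) and 0 lower (0.0656%). It lies inside Cdk1, 1.6 kb from the gene end (chr10:69351110-69351510). Without the first WT library at 10 months, 2 regions were called. The Cdk1 region ranked 19011, 16313, 16688 and 17417 in juvenile WT and had no peak in either 10 month WT library. In IRF8KO it ranked 29836, 23717 and 23991 at P9 and 38459 and 37319 at P14, dye-negative cells had 41471 and 152318, and dye-positive cells had no peak. The Cdk1 promoter went the other way with age, at 5302 to 9851 in juvenile WT and 5135 and 4439 at 10 months.

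The looser rule, strong in every library of a group and in none of the other, called 7 of 95 regions higher in juvenile WT (5.89% of all eligible regions) and 2 lower (5.46%). The 7 were at E2f2, Ccne1, Ccnd1, Mcm5, Cdk1, Aurkb and Rrm2, and the 2 at Rb1 and Ccnd3. Most of these straddled the limit of rank 30000. At the promoter of Aurkb, a mitotic kinase, ranks were 20924, 28608, 22792 and 16940 in juvenile WT and 32099 and 34597 at 10 months. At Rrm2, a subunit of ribonucleotide reductase, 0.35 kb inside the gene, they were 16027 to 29085 and 35256 and 35279. Ccne1, which encodes cyclin E1, had ranks of 17012 to 25654 and 32733 and 54690 at a region 34.4 kb outside. Over all 118 regions at these genes that were strong in a WT library, 29 (24.6%) ranked better in every juvenile than in either 10 month WT library, against 25.8% of 37617 regions.

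By number of strong regions, 4 of 39 genes were above in juvenile WT without overlap (Ccne1, E2f2, Mcm5 and Rrm2), against 7.26% of all genes, and 1 was below (Ccnd3), against 5.73%. Rrm2 held 3, 4, 3 and 4 in juvenile WT and 1 and 2 at 10 months, with 4 and 3 in dye-negative cells. E2f2 held 2, 2, 3 and 3 against 1 and 1. Ccnd3, which encodes cyclin D3, held 7, 5, 7 and 7 against 8 and 8. Aurkb held 1, 2, 2 and 2 against 1 and 0, which overlap. Mki67 (3, 4, 4 and 4 against 3 and 4), Top2a (1 in every library), Cdk1 (3, 2, 3 and 3 against 3 and 2), Ccnd1 (9, 10, 8 and 10 against 9 and 8) and Cdkn1a (3 in each) also overlapped. Of the lists of other cell cycle genes, G2/M genes held 77 in each juvenile WT library and 66 and 68 at 10 months, S phase genes 44 to 47 against 43 and 42, and G1 and arrest regulators 71, 71, 62 and 64 against 70 and 68, which overlap. Over all genes the juvenile WT libraries also held more, at 26702 to 26907 strong regions against 26144 and 26315.

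Deeper in the lists, fewer peaks lay at these genes at 10 months. No count over all genes is set beside the numbers that follow, so they do not show whether other genes fell alike. Among the first 126060 peaks of each library, 345 to 374 lay at the 42 genes in juvenile WT, 362 to 374 in IRF8KO at P9, 331 and 319 in IRF8KO at P14, 285 and 282 in WT at 10 months, 274 and 275 in dye-negative and 207 and 225 in dye-positive cells. Among the 30000 top peaks the numbers were 101 to 107 in juvenile WT and 100 and 99 in WT at 10 months. The strength of the lists, given above, falls in much the same order, and its part was not tested.

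In 5xFAD, the strict rule called 0 of 93 regions at these genes in either direction between dye-negative cells and WT (0.137% of all eligible regions higher, 0.0593% lower). By the looser rule 6 were higher (3.95%) and 2 lower (3.51%). By number of strong regions, 5 of 39 genes were above WT in dye-negative cells without overlap (Ccne1, Cenpe, Mcm3, Mcm5 and Rrm2), against 5.25% of all genes, and 2 were below (Ccnd3 and Cdkn1a), against 4.87%. Mcm3 held 2 and 3 against 1 and 1, and Cdkn1a 2 and 2 against 3 and 3. The group means of these genes differed by at most 2 regions. Of 86 eligible regions, dye-positive cells had 0 higher and 4 lower than dye-negative cells (0.867% and 8.48% of all eligible regions), at Cdk6, Ccnd2, E2f3 and Ccnd3. Against WT they had 0 higher and 5 lower (0.733% and 8.4%), the fifth at Rb1. By the looser rule 1 was higher (7.03%) and 17 lower (25%) than in dye-negative cells, and 3 (6.64%) and 17 (24.3%) against WT. By number of strong regions, 4 genes were above dye-negative cells (12% of all genes) and 6 below (15.8%), and 5 were above WT (12.3%) and 6 below (16%). These comparisons share libraries, and the WT libraries also serve in the age comparison. The 4 regions, all inside their genes, had ranks of 12538 to 28690 in WT and dye-negative cells at 10 months and no peak in dye-positive cells. They lie at chr5:3420835-3421235 (Cdk6), chr6:127145912-127146312 (Ccnd2), chr13:29959042-29959442 (E2f3) and chr17:47509026-47509426 (Ccnd3), and the Rb1 region at chr14:73257353-73257753.

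With peaks tied at rank 30000 counted as not strong, the dye-positive libraries held 78 and 67 strong regions in place of 84 and 71. These counts depend on having both dye-positive libraries, which are weak. Without the first of them, 9 regions were higher and 16 lower than in dye-negative cells, and without the second 7 and 9. Against WT the numbers were 10 and 16, and 7 and 12. Leaving out the first or second dye-negative library gave 11 or 7 lower, and leaving out the second WT library gave 9. In these cells 27 of the 35 promoters, taken at the starts used, were in the top 30000 of both libraries. The others were E2f1 and E2f2 (no peak in either), Cdk6, Cdkn1a and Tyms (a weak peak in 1), and Plk1, Ccnb2 and Birc5 (strong in 1). Among those strong in both, Mki67 ranked 8558 and 6504, Top2a 5363 and 9266, and Cdk1 5295 and 2046. Neuronal markers, at 10 and 13 strong regions, were highest in these libraries, and their part in these differences was not tested.

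**Figure D4:**
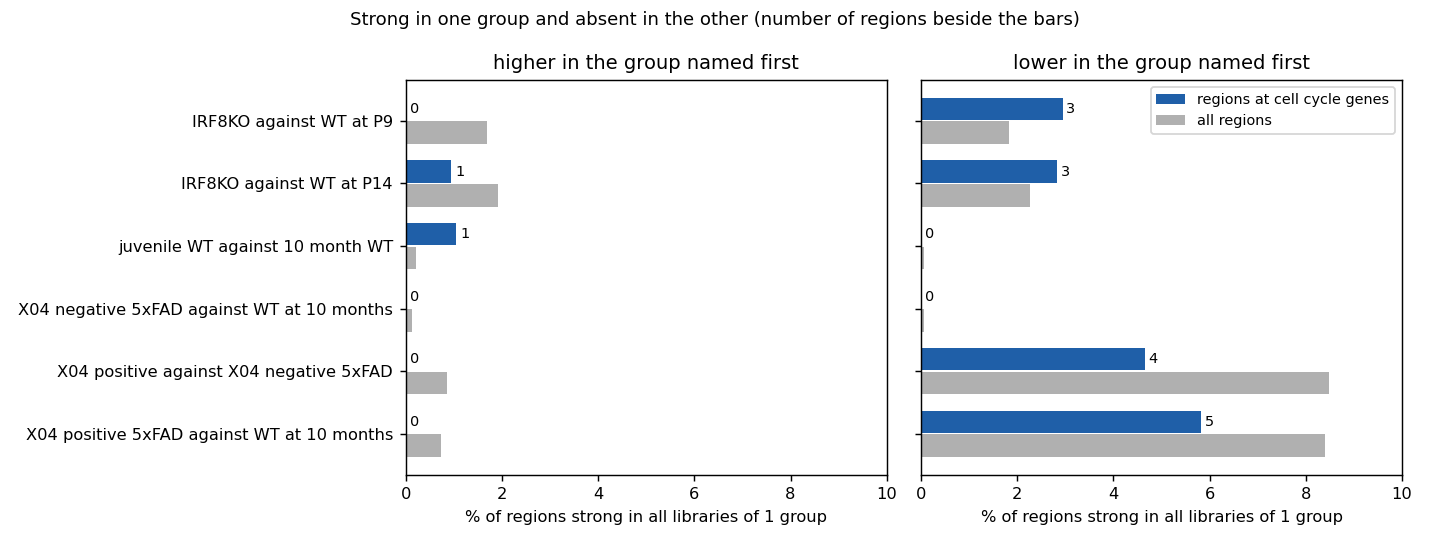
Share (%) of eligible regions that were strong in every library of a group and absent from the other, at the cell cycle genes (blue, number of regions beside the bar) and over all regions (grey), for 6 comparisons, with higher and lower calls in separate panels. Where the blue bar exceeds the grey, it rests on 1 to 3 regions.

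From P9 to P14 the strict rule called 0 regions at these genes in WT (0.00365% of all eligible regions higher, 0.0109% lower) and 0 in IRF8KO (0.00733% and 0%). By the looser rule there were 1 higher and 1 lower in WT (2.27% in each direction) and 3 higher and 4 lower in IRF8KO (2.93% and 3.54%). By number of strong regions, E2f2 was above and Cdk6 below at P14 in WT, against 3.29% and 3.42% of all genes, and in IRF8KO Ccnd2 and Cdk6 were above and Ccnd1 and Tyms below, against 3.72% and 4.59%. Between genotypes the looser rule called 11 higher and 11 lower at P9 (13.2% and 12.6%) and 13 and 12 at P14 (13.5% and 13.6%).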

How the data were processed

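ATAC-seq peak lists of 15 libraries in 7 groups were used, in mm10 coordinates. Per the submitters' processing notes, bcl2fastq, Bowtie2, MACS2 2.2.7.1 and deepTools were used; settings are not given in the sources used here. The names of the deposited lists record trimming, removal of duplicate and mitochondrial reads, a transposase (tn5) step and a p threshold of 0.01, and those at P14 also carry the word merged, with no statement of what was merged. Each list belongs to 1 sample in the labels and was taken as 1 library. The deposited lists give for each peak a fold enrichment (a ratio), −log10 p, −log10 q and the summit's distance from the peak's start, as the authors' caller wrote them. The display score that the authors' caller also wrote was not used. Read depth is unknown, so no counting interval is given. The lists held 126070 to 194399 summits.

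On chromosomes 1 to 19 and X, each list was sorted by decreasing −log10 p, ties by fold and then position. Summits of the 30000 top peaks made regions, best rank first, dropping any within 400 bp of one already taken, and each went to the nearest RefSeq protein-coding gene body (GRCm38.p6) within 100 kb, or, inside several bodies, to that with the nearest end. Strong means a top-30000 peak within 200 bp, absent no summit within 400 bp among the first 126060 peaks. Presence and log10 rank were compared between genotypes by two-sided exact permutation tests within age (60 arrangements), with Benjamini-Hochberg adjustment over the 6330 regions able to pass by their total, and over 42905 ranked regions. The tests were checked on simulated ranks. Other comparisons have no test, since their groups are too small. A start site's peak was the best within 500 bp. Aurkb, Ccna2, Ccnd1, Ccnd2, Ccne2, Mcm4 and Rb1 have no promoter sequence here. Alternatives were 20000 or 50000 top peaks, genes within 20 kb, summits within 100 bp, other definitions of absence, a rank cap of 60000, a −log10 q of at least 2, a replicate block, and each library left out. Values are given in full for genes with a called region, the 5 genes with the largest difference in strong regions between ages and between genotypes, Mki67, Top2a, Cdk1, Ccnd1 and Cdkn1a; other cell cycle genes are named where they hold a called region. The genes, lists and rules were chosen with earlier results of these data known. Genes whose starts were examined further (Cdc20, Ccnb1, Cdc6, E2f1, Cenpf, Bub1b, Tyms and Kif11) were picked after their values were seen. Software was numpy 2.4.6 and pandas 2.3.3 under Python 3.11.15, with matplotlib 3.10.9 for plots.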

Additional observations from a re-analysis of the deposited data

How the results depend on the processing

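The calls of the 13 regions past the exact test need every library at P9, because the number of arrangements sets the smallest possible p. With any juvenile library left out, the difference in presence of each of the 13 stayed at 1 or −1. Leaving out any 1 of the 5 libraries at P9 raised the smallest possible exact p to 0.0417 (WT) or 0.0556 (IRF8KO) and lost all 13 calls, while leaving out any 1 of the 4 at P14 kept them (adjusted exact p = 0.038). The counts of gained and lost regions ranged from 0 to 8 and from 0 to 7. The rank test had no call in any such fit (0 to 0 in both directions). Under a replicate block, pairing libraries by number within age, no region could pass (0 gained, 0 lost), and the difference in summed regions was 0.5. The labels tie these numbers to no shared animal or day. Of the 13, 7 kept the smallest exact p with 20000 top peaks and 4 with 50000 (1 each at E2f2, Cdk6, Ccnd2 and E2f3). With genes within 20 kb the exact test gave 4 gained and 2 lost. The genotype difference in summed regions was −3.33 with 50000 top peaks and 2.58 within 20 kb, and ranged from −0.58 to 1.42 with libraries left out. The age difference was 2.25 with 20000 and 20.5 with 50000 top peaks, 2.5 within 20 kb, and 4.5 to 7.5 with libraries left out.

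By the strict rule, 20000 top peaks gave 1 lower at P9, 0 higher and 1 lower at P14, and 1 lower in dye-positive cells against either group. With 50000 there were 3 higher at P9, 3 higher at P14, and 24 lower against dye-negative cells and 15 against WT. Within 20 kb, P14 gave 0 higher and 1 lower. The looser rule gave 11 higher and 11 lower at P9, 13 and 12 at P14, 7 and 2 between ages, 6 and 2 for dye-negative cells, 1 and 17 for dye-positive against dye-negative cells, 3 and 17 against WT, 1 and 1 for P14 against P9 in WT and 3 and 4 in IRF8KO. With libraries left out, higher regions ranged from 0 to 1 at P9, 1 to 2 at P14 and 1 to 2 between ages, lower regions from 3 to 4 at P9 and at P14; in dye-positive cells from 0 to 9 higher and 7 to 16 lower against dye-negative cells and from 0 to 10 and 7 to 16 against WT. Peaks tied at rank 30000 were also treated as not strong, an alternative chosen after seeing the data, which left the counts by the exact test and the strict rule as they were. By the looser rule, dye-positive cells against WT then had 2 higher and 18 lower, in place of 3 and 17. With a −log10 q of at least 2, mean deposited peaks at these genes fell from 394.5 to 352 in WT and from 435.3 to 399 in IRF8KO at P9, from 430 to 394 and from 357 to 297.5 at P14, and from 302.5 to 247 in WT, 328 to 253.5 in dye-negative and 287.5 to 135 in dye-positive cells at 10 months. Where an alternative moved a count, the cause was not tested. The weak dye-positive lists limit what absence there can show.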
